A study of Mus musculus with 6 samples.

Results

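The genes described here are the Notch receptors Notch1, Notch2 and Notch3, the ligands Dll1, Dll4, Jag1 and Jag2, and the Hes/Hey targets Hes1, Hey1 and Heyl. They were chosen by name and are 10 of the 54532 genes in the deposited table, and all 10 were among the 14679 genes with enough reads to be tested. Bulk RNA-seq was performed on primary myoblasts, muscle progenitor cells freshly taken into culture, from hind-limb muscles of 3-week-old mice. The cells were grown with 10 µg/ml FGF and collected on day 2, and the data comprise 3 WT libraries and 3 libraries labelled eIF5A-KO. In the study the KO genotype was Pax7CreERT2/+;eIF5A f/f, in which tamoxifen activates a Cre recombinase made in Pax7-expressing cells, so that other cell types in the dish keep eIF5A, a translation factor. The labels give the controls as WT only, and the study describes its control mice in one place as Pax7CreERT2/+ and in another as Pax7+/+;eIF5A f/f, so that the sources used here do not settle whether the control cells carried Cre or the floxed alleles. No label says that the replicates came from separate mice or cultures, the study speaks only of triplicate experiments, and p-values therefore measure only the spread between these libraries.

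Notch signalling passes between touching cells: a Delta-like (Dll) or Jagged (Jag) ligand on one cell makes a receptor on its neighbour release its intracellular domain, which joins the DNA-binding protein RBPJ and switches on target genes such as Hes1, Hey1 and Heyl. The Hes and Hey proteins are transcriptional repressors, and in skeletal muscle the pathway is known for holding satellite cells in an undifferentiated, Pax7-positive state and for opposing Myod1 and Myog. The same genes also work in blood vessels, where Dll4, Notch1 and Notch4 belong to endothelial cells and Notch3 and Heyl to mural cells (pericytes and smooth muscle).

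The targeted gene was read first. Eif5a was measured at 1603, 986 and 1238 CPM (counts scaled to a common library size with TMM factors) in WT replicates 1 to 3, and at 1364, 1459 and 1059 CPM in the libraries labelled eIF5A-KO. The groups overlapped completely and the fold difference was 1.01 (95% CI 0.70 to 1.46, edgeR adjusted p = 0.99). A count over the whole gene does not show which exons the reads came from. The deleted exons are not given in the study's text, and its schematic of the knockout mice was not read here. The groups are therefore named by their labels throughout, and every direction below is that of the libraries labelled eIF5A-KO against WT.

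Total counts were between 16281216 and 17734551 per library. WT replicate 1 stood apart, with 5.75% of its counts from mitochondrial genes against 2.11% to 3.50% in the other 5 libraries. Myogenic markers were present in every library (Myod1 105 to 292 FPKM, a level per gene length), but endothelial markers were also high (Pecam1 44.5 to 131 FPKM, Cdh5 57.1 to 194 FPKM), and summed fibroblast markers reached 1626 to 2367 CPM. In such bulk RNA, fewer cells of a type and less RNA per cell cannot be told apart, and a Notch transcript cannot be assigned to the myoblasts. Across all tested genes, 3 had an adjusted p under 0.05, which is 0.0204% of them.

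None of the 10 Notch genes passed that adjusted threshold in edgeR. At an unadjusted p under 0.05 there were 2, Hes1 and Hey1, against 6.76% of all tested genes, and both lay higher in the libraries labelled eIF5A-KO, where 2.74% of tested genes passed in that direction. No member passed in the lower direction, against 4.02% of tested genes. The median log2 fold change was 0.26 over the 10 genes, -0.03 over the receptors, 0.03 over the ligands and 0.69 over the targets, beside -0.01 over all tested genes. DESeq2 called 1 member, Hes1, and 0.627% of all tested genes.

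On a per-length scale (FPKM), Hes1 had the highest level of the 10 genes, with 21.6 ± 5.75 FPKM in WT (SD, n = 3), and it exceeded the next gene, Dll4, in 6 of 6 libraries. Dll4 (10.5 ± 5.78 FPKM in WT), Notch3 (8.92 ± 6.37), Jag2 (8.61 ± 4.70), Notch1 (8.33 ± 7.38), Notch2 (7.57 ± 3.39) and Jag1 (7.20 ± 3.18) followed. Neighbours among these 6 did not keep their order beyond the spread, since each stood above the next in only 3 or 4 of 6 libraries. Jag1 exceeded Dll1 (3.66 ± 2.24 FPKM) in all 6 libraries, Dll1 exceeded Hey1 (3.32 ± 0.634) in 2, and Hey1 exceeded Heyl, the lowest (1.95 ± 1.26), in all 6. In the libraries labelled eIF5A-KO, Hes1 was again first, with 54.0 ± 28.2 FPKM, and Heyl again last, with 2.90 ± 0.475.

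Among the receptors, Notch1 (ENSMUSG00000026923, chr2:26457903-26516663, minus strand, GRCm38) is a receptor known from satellite cell quiescence. It was read at 30.2, 237 and 92.2 CPM in WT replicates 1 to 3 and at 69.1, 108 and 149 CPM in the libraries labelled eIF5A-KO. WT replicate 1 was the lowest and WT replicate 2 the highest of the 6, 7.83-fold apart, and all 3 libraries labelled eIF5A-KO fell between them. The fold difference was 0.91 (95% CI 0.36 to 2.27, edgeR adjusted p = 0.98).

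Notch2 (ENSMUSG00000027878, chr3:98013527-98150361, plus strand) acts beside Notch1 in satellite cells. Its values were 48.8, 122 and 77.0 CPM in WT and 71.0, 80.1 and 92.1 CPM in the libraries labelled eIF5A-KO. The order was that of Notch1, with the second group again inside the WT range, and the fold was 0.98 (95% CI 0.62 to 1.56, edgeR adjusted p = 0.99).

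Notch3 (ENSMUSG00000038146, chr17:32120820-32166880 in the deposited table, minus strand) is expressed both in muscle progenitors and in mural cells. It was read at 23.7, 127 and 67.1 CPM in WT and at 71.2, 89.9 and 118 CPM in the libraries labelled eIF5A-KO. Again WT replicates 1 and 2 enclosed all other libraries, and the fold was 1.28 (95% CI 0.61 to 2.70, edgeR adjusted p = 0.95).

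Of the ligands, Dll4 (ENSMUSG00000027314, chr2:119325784-119335962, plus strand), the main Delta-like ligand of endothelial cells, was the most abundant per length. It measured 17.6, 62.5 and 42.5 CPM in WT and 57.6, 40.0 and 53.7 CPM in the libraries labelled eIF5A-KO, a fold of 1.23 (95% CI 0.68 to 2.22, edgeR adjusted p = 0.95). Dll1 (ENSMUSG00000014773, chr17:15367354-15376872, minus strand), a Delta-like ligand made by myogenic cells, measured 5.95, 25.0 and 15.9 CPM in WT and 13.4, 11.7 and 17.5 CPM in the libraries labelled eIF5A-KO. Its fold was 0.91 (95% CI 0.47 to 1.75, edgeR adjusted p = 0.98). For both genes WT replicate 1 was lowest, WT replicate 2 highest, and the groups overlapped.

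Jag1 (ENSMUSG00000027276, chr2:137081456-137116644, minus strand), a Jagged ligand of vessel walls and other tissues, measured 23.5, 60.8 and 42.9 CPM in WT and 43.6, 42.9 and 60.8 CPM in the libraries labelled eIF5A-KO. The fold was 1.16 (95% CI 0.71 to 1.89, edgeR adjusted p = 0.95). Jag2 (ENSMUSG00000002799, chr12:112907819-112929776, minus strand), the related second Jagged ligand, measured 25.8, 91.4 and 64.7 CPM in WT and 59.7, 44.2 and 51.9 CPM in the libraries labelled eIF5A-KO. Here the fold was 0.86 (95% CI 0.48 to 1.54, edgeR adjusted p = 0.96). WT replicates 1 and 2 were once more the extremes for both, although replicate 3 labelled eIF5A-KO equalled WT replicate 2 within rounding for Jag1. Thus for all 3 receptors and all 4 ligands every library labelled eIF5A-KO lay inside the WT range, which was so for 29.7% of all tested genes and 38.4% of those over 8 kb.

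**Figure D1:**
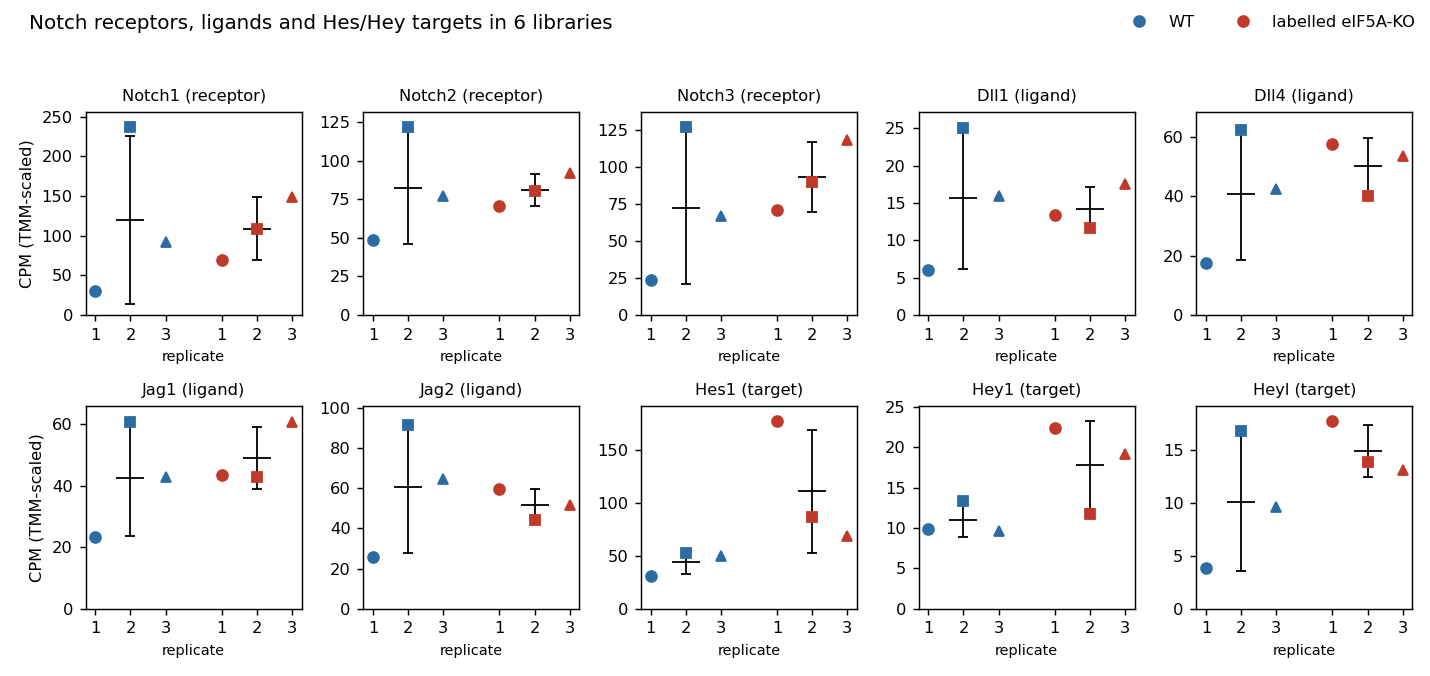
Normalised read counts (CPM, y axis, linear) of the 10 Notch genes in each library, with circles, squares and triangles for replicates 1, 2 and 3, WT in blue and libraries labelled eIF5A-KO in red. Black bars give the mean and SD of 3 libraries. For receptors and ligands the WT libraries spread more widely than the red ones and enclose them, whereas the 3 red Hes1 values, from 69.0 to 177 CPM, lie above every WT value.

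Among the targets, Hes1 (ENSMUSG00000022528, chr16:30064384-30067796, plus strand), a repressor that opposes myogenic factors, was read at 31.0, 52.3 and 49.97 CPM in WT replicates 1 to 3 and at 177, 86.1 and 69.0 CPM in the libraries labelled eIF5A-KO. The groups did not overlap, as was true for 12.5% of all tested genes, and it was the only member of the 10 without overlap. The fold was 2.49 (95% CI 1.43 to 4.32, log2 fold change 1.32 with SE 0.35, edgeR unadjusted p = 0.0045, adjusted p = 0.41), so the value missed the threshold over all genes. DESeq2 gave it an adjusted p of 0.037, and edgeR with no filter on low counts, which called 0.924% of the genes it tested, an adjusted p of 1.38e-06. P-values of the unfiltered fit are not comparable with those of the main fit. For Notch3 the unadjusted edgeR p fell from 0.47 to 0.086 without the filter, while its log2 fold changes were close, 0.36 and 0.38. For Hes1, replicate 1 labelled eIF5A-KO was the highest of its group, and without it the log2 fold change was 0.81 (adjusted p = 1.00 in edgeR).

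Hey1 (ENSMUSG00000040289, chr3:8663359-8667256, minus strand), a Hairy-related repressor that satellite cells use together with Heyl, was read at 9.89, 13.4 and 9.63 CPM in WT and at 22.5, 11.8 and 19.2 CPM in the libraries labelled eIF5A-KO. Replicate 2 labelled eIF5A-KO lay within the WT range and the other 2 above it. The fold was 1.62 (95% CI 1.07 to 2.44, edgeR unadjusted p = 0.027, adjusted p = 0.64). Without replicate 1 labelled eIF5A-KO its unadjusted edgeR p was 0.11 and its adjusted p was 1.00.

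Heyl (ENSMUSG00000032744, chr4:123233556-123249875, plus strand), the Hey relative found in mural cells as well as muscle, was read at 3.81, 16.8 and 9.63 CPM in WT and at 17.7, 13.9 and 13.1 CPM in the libraries labelled eIF5A-KO. WT replicate 1 was again the lowest library, and WT replicate 2 exceeded 2 of the 3 libraries of the other group. The fold was 1.47 (95% CI 0.76 to 2.84, edgeR adjusted p = 0.90).

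**Figure D2:**
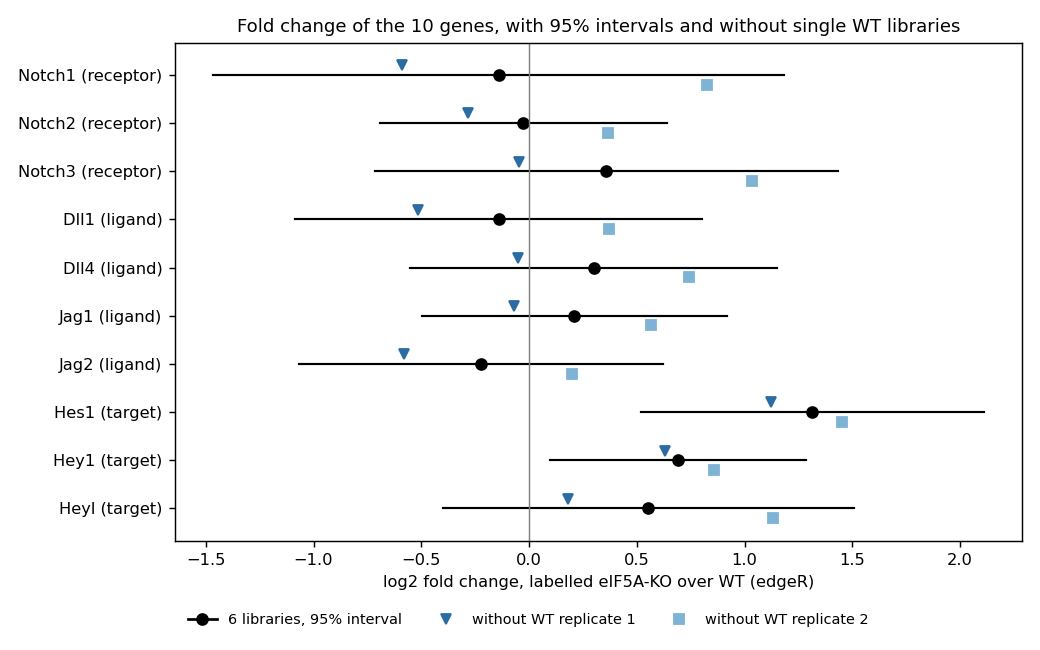
Log2 fold change of each gene, libraries labelled eIF5A-KO over WT (x axis), with the 95% confidence interval from all 6 libraries as a black line, the value without WT replicate 1 as a triangle and without WT replicate 2 as a square. The intervals of Hes1 and Hey1 lie above 0 before adjustment over all genes. All 7 receptors and ligands lie below 0 without WT replicate 1 and above 0 without WT replicate 2, Notch1 at -0.59 and 0.83.

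The sign for the receptors and ligands turned with single libraries. Without WT replicate 1, the log2 fold changes of all 7 lay below 0, from -0.59 for Notch1 to -0.05 for Notch3 and -0.05 for Dll4. Without WT replicate 2, all 7 lay above 0, from 0.20 for Jag2 to 1.03 for Notch3, and no adjusted p fell below 0.05 in either case. Without replicate 1 labelled eIF5A-KO, Notch1 (0.11) and Notch2 (0.070) also turned above 0. The 3 targets kept a positive sign in both, with 1.12 and 1.45 for Hes1, 0.63 and 0.86 for Hey1 and 0.18 and 1.13 for Heyl. The median over the 10 genes was -0.06 without WT replicate 1 and 0.78 without WT replicate 2.

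The SD of log2 CPM within WT was above that of the median gene for 9 of the 10 Notch genes. It was 1.48 for Notch1, 1.21 for Notch3, 1.01 for Dll1 and 1.01 for Heyl, beside a median of 0.29 over all tested genes, and it lay at or above the 91.6th percentile for every receptor and ligand and for Heyl. Hes1 (0.41) and Hey1 (0.25) were closer to the median. Within the libraries labelled eIF5A-KO the SD was smaller, 0.55 for Notch1 and 0.37 for Notch3, and it was larger than within WT for Hes1 and Hey1 alone among the 10. A larger SD within WT was also found for 64.5% of all tested genes and 71.6% of those over 8 kb.

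This spread followed single libraries. WT replicate 1 was the lowest library for 9 of the 10 genes, all but Hey1, and both the lowest library was WT replicate 1 and the highest WT replicate 2 for 7. Among all tested genes these patterns were found for 27.9% and 11.5%, and among genes over 8 kb, the length class of the receptors, for 45.1% and 30.4%. In WT replicate 1 the median deviation from the mean over the libraries was -1.11 on the log2 scale for the Notch genes, beside -0.19 for all genes over 8 kb and 0.24 for those under 2 kb. In WT replicate 2 it was 0.59 for the Notch genes, beside 0.28 and -0.25. Endothelial markers were lowest in WT replicate 1 for 7 of 8 genes, their summed level being 1253 CPM there and 2181 to 3222 CPM in the other libraries, and mural markers for 6 of 8. The part of gene length, of cell types or of the mitochondrial share in the Notch values was not tested. With each library's trend on length and GC removed, the log2 fold change was 1.22 for Hes1 and 0.63 for Hey1, and 0.01 for Notch1 and 0.02 for Notch2.

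**Figure D3:**
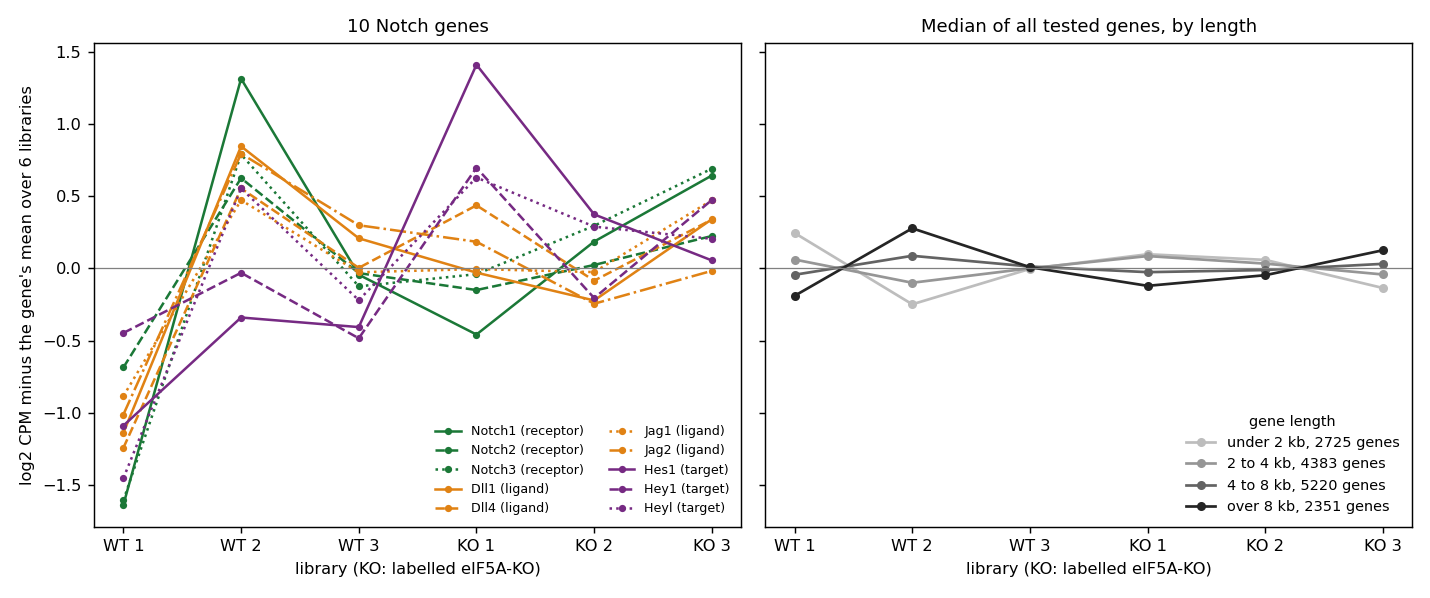
Deviation of log2 CPM from each gene's mean over the 6 libraries (y axis) by library (x axis), for the 10 Notch genes (left; green receptors, orange ligands, purple targets) and as the median of all tested genes in 4 length classes (right). Lines only join the values of one gene or class. Most Notch genes share a low in WT 1 and a peak in WT 2, with -1.64 and 1.31 for Notch1, whereas the class of genes over 8 kb moves the same way by -0.19 and 0.28.

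Shares within a library remove what all receptors or all ligands have in common. The receptor sum covers Notch1, Notch2 and Notch3. It leaves out Notch4, with a mean of 12.8 FPKM in WT and 14.3 FPKM in the libraries labelled eIF5A-KO. Shares that include Notch4 would be smaller and were not computed. Of the sum without Notch4, Notch3 took 30.7%, 36.1% and 38.0% in WT replicates 1 to 3 and 43.6%, 42.6% and 43.7% in the libraries labelled eIF5A-KO. The groups did not overlap, and the means differed by 8.38 percentage points (34.9% ± 3.76 against 43.3% ± 0.575, SD, n = 3). Notch2 took 47.1%, 25.8% and 32.5% in WT and 32.5%, 28.4% and 25.3% in the other group, and Notch1 22.1% to 38.1% and 23.9% to 31.0%, both with overlap.

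Of the summed ligand FPKM, Dll4 took 33.4%, 35.5% and 35.1% in WT and 43.7%, 38.6% and 38.8% in the libraries labelled eIF5A-KO, without overlap. Jag2 took 27.0%, 28.7% and 29.5% in WT and 25.1%, 23.6% and 20.7% in the other group, also without overlap, while the shares of Jag1 (22.8% to 29.3% and 21.9% to 29.0%) and Dll1 (10.3% to 13.0% and 9.29% to 11.5%) overlapped. Since the groups did not overlap for Notch3, Dll4 and Jag2, leaving out any single library could not turn the sign of their differences. It therefore gives only their size. The differences ran from 6.28 to 9.91 percentage points for Notch3, from 4.04 to 6.60 for Dll4 and from -6.24 to -4.04 for Jag2. The shares of one sum depend on each other, no background share of such patterns was computed, and no test was made on them.

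**Figure D4:**
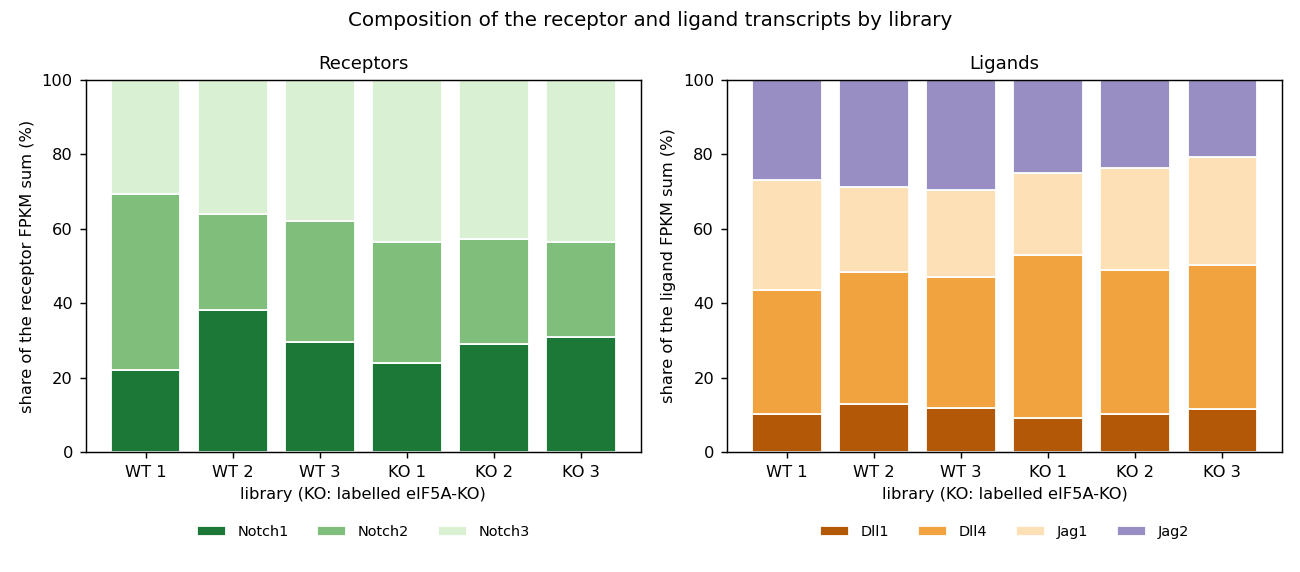
Stacked shares (%, y axis from 0 to 100) of each receptor in the summed FPKM of Notch1, Notch2 and Notch3, without Notch4 (left), and of each ligand in the summed ligand FPKM (right), by library (x axis). The Notch3 segment is larger in the 3 libraries labelled eIF5A-KO (42.6% to 43.7%) than in the 3 WT libraries (30.7% to 38.0%), and the Jag2 segment is smaller (20.7% to 25.1% against 27.0% to 29.5%).

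The wider pathway was read from 53 further genes, of which 47 were tested. Dll3, Hes2, Hes3, Hes5, Hes7 and Helt had too few reads. In edgeR none of the 47 had an adjusted p under 0.05, and DESeq2 also called none. An unadjusted p under 0.05 was found for 3 of the 47, close to the 6.76% of all tested genes. There were 27 log2 fold changes above 0 and 20 below, with a median of 0.10. Hes6, which binds Hes1 and relieves its repression and is itself made in differentiating myoblasts, had the smallest p. It was read at 41.4, 57.4 and 44.7 CPM in WT and at 32.7, 20.7 and 15.5 CPM in the libraries labelled eIF5A-KO. Every value of the second group lay below every WT value, opposite in side to Hes1, and the fold was 0.48 (95% CI 0.31 to 0.74, edgeR unadjusted p = 0.0037, adjusted p = 0.40). With no filter on low counts its adjusted p in edgeR was 0.0012, in the fit whose p-values are not comparable with those of the main fit.

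Psen2 and Psenen encode parts of γ-secretase, the protease that frees the intracellular domain. Psen2 was read at 18.2, 20.0 and 21.1 CPM in WT and at 32.4, 24.5 and 24.5 CPM in the libraries labelled eIF5A-KO, without overlap, with a fold of 1.37 (95% CI 1.03 to 1.83, edgeR adjusted p = 0.68). Psenen was read at 69.2, 53.9 and 65.4 CPM in WT and at 107, 85.4 and 64.7 CPM in the other group, with overlap and a fold of 1.37 (95% CI 0.98 to 1.91, edgeR adjusted p = 0.79). Lfng, the Lunatic fringe enzyme that lengthens sugars on Notch receptors and so alters which ligands they answer, was read at 9.50, 12.8 and 11.3 CPM in WT and at 17.2, 14.3 and 14.4 CPM in the other group, without overlap and with a fold of 1.36 (95% CI 1.00 to 1.85, edgeR adjusted p = 0.74). In all, 7 of the 47 genes had groups without overlap, 3 with higher and 4 with lower values in the libraries labelled eIF5A-KO, beside the 12.5% of all tested genes without overlap.

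In the nuclear complex the group means were close for the most abundant genes. Rbpj, the DNA-binding partner of every Notch receptor, had 13.8 ± 1.64 FPKM in WT and 13.9 ± 0.905 FPKM in the libraries labelled eIF5A-KO (SD, n = 3), and its log2 fold change was 0.01 (95% CI -0.36 to 0.38). Ctbp1, a corepressor and the most abundant gene of its class, had 52.1 ± 2.60 and 51.5 ± 8.22 FPKM, with a log2 fold change of -0.02 (95% CI -0.42 to 0.37). Notch4, the endothelial receptor, had 12.8 ± 8.39 FPKM in WT and 14.3 ± 2.59 FPKM in the other group, with the lowest value in WT replicate 1 and the highest in WT replicate 2, as for the receptors above. Mfng, the Manic fringe enzyme, had 12.3 ± 3.46 and 16.01 ± 3.05 FPKM. The ligand ubiquitin ligase Mib2, which helps ligands to be pulled into the sending cell, had 7.41 ± 1.88 and 8.90 ± 1.29 FPKM, and Dtx3 of the Deltex family 14.6 ± 2.84 and 16.6 ± 2.45 FPKM.

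**Figure D5:**
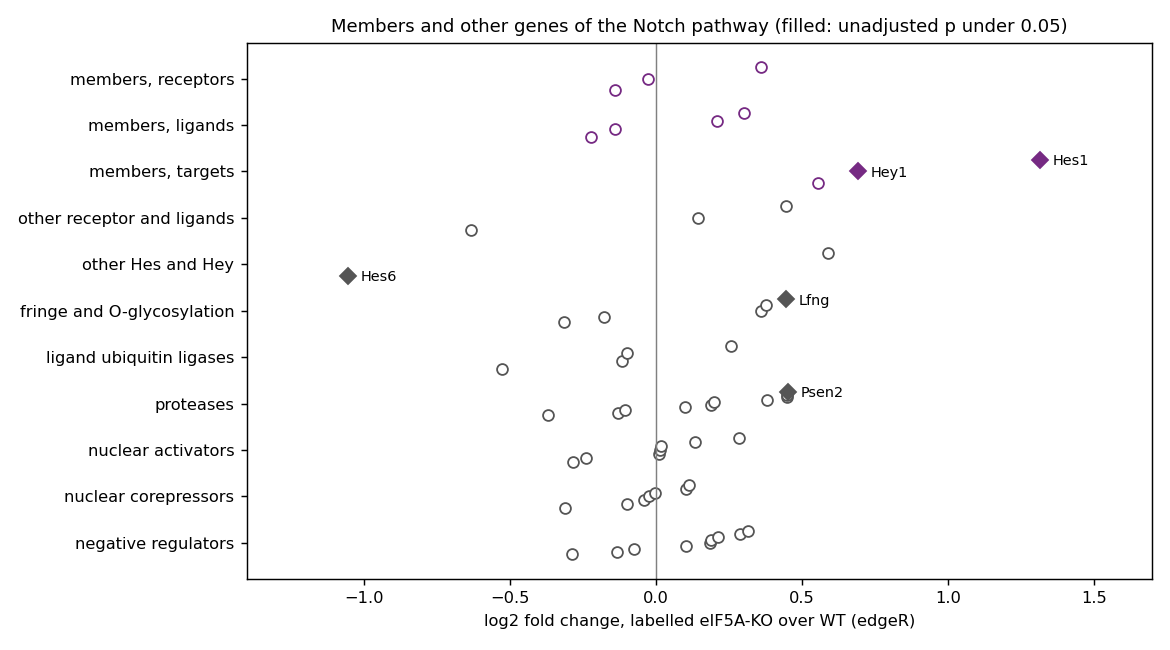
Log2 fold change (x axis) of the 10 Notch genes (purple) and of the 47 other tested pathway genes (grey), one row per class. Filled diamonds mark an unadjusted p under 0.05 in edgeR. Hes1 (1.32) and Hes6 (-1.06) lie farthest to either side, and most other genes lie between -0.4 and 0.5.

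Hes1 was read beside markers of other cell types. Summed mural markers were 402 to 655 CPM in WT and 727 to 822 CPM in the libraries labelled eIF5A-KO, without overlap. Pdgfrb alone held, on average, 209 CPM of that sum in WT and 367 CPM in the libraries labelled eIF5A-KO. All 8 mural genes were tested and had log2 fold changes above 0, from 0.10 to 1.51. Groups did not overlap for 4 of the 8, beside 12.5% of all tested genes. Myh11, a smooth muscle myosin, rose 2.85-fold (95% CI 2.18 to 3.73, edgeR adjusted p = 0.049). Myh11 lost that call under 11 of the 17 alternative settings, with adjusted p up to 0.31, while its log2 fold change stayed between 1.06 and 1.57. Summed macrophage markers were 23.5 to 48.7 CPM and 30.2 to 73.7 CPM, and summed endothelial markers 1253 to 2550 CPM and 2181 to 3222 CPM. All 8 endothelial genes likewise had log2 fold changes above 0, from 0.23 to 0.55 with a median of 0.45, against 0.52 for the mural genes. Of the 6 fibroblast genes, 5 lay below 0, with unadjusted edgeR p from 0.30 to 0.65. The other, Col1a1, lay above 0 without overlap (log2 fold change 0.72, edgeR unadjusted p = 0.011, adjusted p = 0.50). Summed myogenic markers were 658 to 1660 CPM and 652 to 1156 CPM. Of the 8 myogenic genes, 7 had log2 fold changes below 0, Des at only -0.02, and Myf5 lay above (0.13). Their median was -0.45, and only Myog had groups without overlap. Myog, the differentiation factor and the most lowered of the 8, was at 14.4, 76.3 and 32.2 CPM in WT and 8.93, 5.09 and 2.10 CPM in the other group (edgeR adjusted p = 0.36). Pax7, the satellite cell factor, was at 12.9, 51.7 and 25.2 CPM in WT and 13.0, 8.29 and 10.6 CPM in the other group, with overlap at WT replicate 1 (fold 0.36, edgeR adjusted p = 0.48). No marker of the 5 lists had a library without reads, but in WT replicate 1 Ptprc had 3 and Fcgr1 4. Cd68 alone held 18.6 of the 23.5 CPM of summed macrophage markers in that library. The part of these cell types in the Hes1 and Hey1 values was not tested.

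The 3 tested genes whose profile over the 6 libraries was closest to that of Hes1 were Apod, which encodes a lipid-binding apolipoprotein, Mrgprf, which encodes an orphan receptor, and Nr4a3, which encodes an orphan nuclear receptor. Their centred log2 CPM differed from that of Hes1 by a root mean square of 0.25, 0.26 and 0.28. Apod was read at 34.6, 33.7 and 49.6 CPM in WT and at 146, 77.5 and 68.0 CPM in the libraries labelled eIF5A-KO. Replicate 1 labelled eIF5A-KO was the highest library for Hes1 and for all 3 of these genes, which follows from their choice by likeness to Hes1.

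Because eIF5A is known to help ribosomes through runs of proline codons, such runs were sought in the members' coding sequences (reference sequence only, since RNA levels say nothing of translation). The members' coding sequences ran from 282 codons (Hes1) to 2531 (Notch1). At least 3 proline codons in a row were found in 6 of the 10 genes, Notch1, Notch3, Dll1, Jag2, Hes1 and Heyl, beside 20.0% of 21584 genes with a coding sequence, a share not matched for length. The longest run of each of the 3 genes with 4 or more such codons is shown here 5′ to 3′ on the coding strand, with the proline codons in capitals and 6 bases on either side.
Hes1, codons 166 to 171: caggcgCCGCCGCCGCCGCCCCCGtcagga
Notch3, codons 18 to 23: gccttgCCACCGCCACCACCGCCCatgcgg
Notch1, codons 2258 to 2261: tttgagCCACCCCCGCCAcgcctc
The runs lie at chr16:30067075-30067092 on the plus strand for Hes1, at chr17:32166725-32166742 on the minus strand for Notch3 and at chr2:26460344-26460355 on the minus strand for Notch1 (GRCm38), each within 1 exon.

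Promoters (250 bases before to 50 after a start, RefSeq, GRCm38.p6) were read for 7 of the 10 genes, the 3 receptors and 4 ligands. Hes1, Hey1 and Heyl had no entry. The word GTGGGAA, read by RBPJ, was in 0 of the 8 receptor and ligand windows on either strand, beside 6.38% of 32851 windows. The E-box CAGCTG, which MyoD reads, was in 1 window each of Dll1 and Jag1, beside 16.3% of all windows, and CACGTG, read by Hes and Hey proteins, in 0 beside 7.15%. Both E-boxes are shown in capitals, 5′ to 3′ on the strand of the gene, because Dll1 and Jag1 are the ligand genes that hold this word.
Dll1: cattaccataCAGCTGagcgcacaaa
Jag1: gcgtttcatgCAGCTGatctgaaagg
They lie at chr17:15377049-15377074 and chr2:137116587-137116612, both on the minus strand, 132 and 82 bases before the RefSeq start of that window. These starts differ from the gene ends given above, and the Jag1 word lies inside the gene as the deposited table bounds it. Myod1 itself was read at 264, 550 and 437 CPM in WT and at 349, 272 and 196 CPM in the libraries labelled eIF5A-KO, with overlap. A matching word is a description and not a bound site.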

How the data were processed

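Primary myoblast RNA was sequenced in 6 libraries, 3 WT and 3 labelled eIF5A-KO. Per the labels and the study's methods, libraries were made with an NEBNext Ultra kit and reads mapped to mm10 with HISAT. The authors deposited raw read counts per gene, without normalization, and a table of FPKM, which divides by 1 denominator per library that is not its count total, so that FPKM here is not per mapped read of that library. DEGSeq2 is named for the read coverage, but the HISAT version, the annotation and the strand setting are not given in the sources used here. Reads of overlapping genes could thus not be separated. The largest such overlap held 48 reads in a library (Gm14207 over Dll4).

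The counts were analysed in R 4.3.3 with edgeR 4.0.16: filterByExpr (minimum count 10), TMM, a two-sided quasi-likelihood F test without covariates (prior count 2), and Benjamini-Hochberg adjustment over 14679 genes. An adjusted p under 0.05 was a call. Intervals are at 95%. DESeq2 1.42.0, limma 3.58.1, other scaling and filters, a replicate block and leaving out each library were alternatives. Levels between genes used FPKM. Coding sequences came from GENCODE M21, whose coordinates equalled those of the table for 9 of 10 members, Notch3 excepted.

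Of the other pathway genes, the 4 with the smallest p and the most abundant of each class were named, since none passed the adjusted threshold, and Hes1, with the smallest p of the members, was the gene for which similar profiles were sought. Pax7, Myog, Myod1, Myf5, Des, Myh11, Pdgfrb, Col1a1, Ptprc, Fcgr1, Cd68, Pecam1 and Cdh5 were named from the marker lists after their values were seen. The members, pathway lists and marker lists were chosen with earlier results of these data known.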

Additional observations from a re-analysis of the deposited data

How the results depend on the processing

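The 17 alternatives gave 170 member values, of which 145 kept their direction and side of the adjusted threshold, 2 passed it and 23 turned in sign. Hes1 passed in DESeq2 (log2 fold change 1.32, adjusted p = 0.037) and in edgeR with no filter on low counts (1.33, adjusted p = 1.38e-06). P-values of the fit with no filter are not comparable with those of the main fit. Over all 17 alternatives the adjusted p of Hes1 ranged from 1.38e-06 to 1.00. The count of members past the adjusted threshold was therefore 1 in DESeq2 and with no filter, and 0 elsewhere. Over all genes, 11 of the 17 alternatives called none in place of 3, 5 of them leaving out a library, whereas 249 passed with no filter, 92 in DESeq2 and 56 without WT replicate 1, and with no filter 1 other pathway gene, Hes6, was among them. Reversed values were 0.24 (Notch1), 0.060 (Notch2) and 0.044 (Dll1) in limma-voom, 0.17, 0.053 and 0.013 in limma on log2(FPKM + 1), and 0.25, 0.070 and 0.067 in limma on log2(FPKM + 0.1). Correlations of same-numbered deviations were 0.09, -0.20 and 0.11, and those of differently numbered ones ran from -0.29 to 0.31. They cannot decide whether the replicate numbers pair the libraries. With a replicate block the values of Notch1, Notch2 and Dll1 were 0.26, 0.065 and 0.047. The replicate block left 1 other pathway gene, Hes6, at an unadjusted p under 0.05 in place of 3, beside 875 of 14679 tested genes in place of 992. It raised the calls over all genes from 3 to 24. The removal of a length and GC trend, chosen after the data were seen, gave 0.0095 for Notch1 and 0.022 for Notch2. With it 5 other pathway genes had an unadjusted p under 0.05, beside 1234 of 14667 tested genes. Library size alone left 1 other pathway gene, beside 966 of 14679. The cause of these moves was not tested.

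Leaving out 1 library gave ranges of -0.59 to 0.83 for Notch1, -0.29 to 0.37 for Notch2, -0.049 to 1.03 for Notch3, -0.52 to 0.37 for Dll1, -0.050 to 0.74 for Dll4, -0.070 to 0.56 for Jag1 and -0.58 to 0.20 for Jag2, each lowest without WT replicate 1 and highest without WT replicate 2. Notch1 (0.11) and Notch2 (0.070) also turned in sign without replicate 1 labelled eIF5A-KO. Unadjusted, 1 to 4 members passed: 4 without WT replicate 2 (Hes1, Hey1, Heyl and Notch3), where 1318 of 14947 tested genes passed. Hes1 passed alone without WT replicate 3 (795 of 15045 tested genes). It was also alone without replicate 1 (585 of 15062) or replicate 3 (1072 of 15050) labelled eIF5A-KO. Of the other pathway genes 1 to 4 passed, Hes6 in every case, and it was alone without WT replicate 3 or replicate 1 labelled eIF5A-KO. Over all tested genes, those passing ran from 585 of 15062 without replicate 1 labelled eIF5A-KO to 1530 of 15056 without WT replicate 1.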
